A study of Mus musculus with 12 samples.

Results

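Colony-stimulating factors are the secreted proteins that keep myeloid cells alive and drive them to divide and mature. The genes described here are 2 ligands, Csf1 and Il34, and 5 receptor chains, Csf1r, Csf2ra, Csf2rb, Csf2rb2 and Csf3r. They were taken from the table of deposited counts by their Ensembl identifiers, 7 genes of 49315, and all 7 passed the filter on low counts that left 20290 genes for testing.

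Brain RNA of 12 mice was sequenced in bulk, 1 library per mouse, at 14 d after a 30 min occlusion of the middle cerebral artery. All recipients were male CD45.1 Pep Boy mice with intact Tet2 that were 8 to 12 weeks old when their bodies, but not their shielded heads, were irradiated. Each received bone marrow (BM) of which 90% came from CD45.1 donors with intact Tet2, and stroke surgery followed 8 to 10 weeks later. The remaining 10% came from CD45.2 Tet2-/- donors in the 6 Tet2-KO mice and from CD45.2 Tet2+/+ littermates in the 6 WT mice, so microglia and the other resident cells of the brain carried intact Tet2 in both groups, as did most of the marrow given. For the 6 Tet2-KO libraries the treatment label speaks of control cells while title and genotype say Tet2-KO, and the title and genotype were followed. Each group is therefore a mixed transplant and not a brain without Tet2.

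Csf1 and Il34 are the ligands of a single receptor tyrosine kinase, Csf1r, on which microglia and most macrophages depend for survival. In the brain Il34 is made mainly by neurons and Csf1 mainly by glia. Csf2ra binds the granulocyte-macrophage factor GM-CSF and signals only together with the common beta chain Csf2rb, which also serves the receptors for interleukin-3 and interleukin-5. Csf2rb2 is a second beta chain that mice have next to the first and that serves interleukin-3 alone. Csf3r is the receptor for the granulocyte factor G-CSF, best known from neutrophils and also present on mouse microglia.

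Total counts per library ranged from 12000261 to 15340787 in the WT group (median 13490632) and from 12625047 to 21049763 in the Tet2-KO group (median 15894080). Counts of the 7 genes ranged from 43 to 5450 per library. CPM values divide each count by the library's TMM-scaled total, and fold changes as log2 of Tet2-KO over WT. Mean Tet2 levels were 132 ± 7.60 CPM in the WT group and 131 ± 7.79 CPM in the Tet2-KO group (SD, n = 6), and since recipients keep the gene this does not check the labels. Of all tested genes, 5 had an edgeR adjusted p under 0.05, and all were lower with Tet2-KO marrow. The median log2 fold change of all tested genes was 0.01.

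A pair of libraries stood apart in the genes described here. WT replicate 2 had the highest level of its group for Csf1 and all 5 receptor chains and the lowest for Il34. Tet2-KO replicate 5 had the highest level of its group for the same 6 genes, at values within the WT range, and again the lowest for Il34. Tet2-KO replicate 1 had the opposite profile, with the lowest level of its group for those 6 genes and the highest for Il34. The results below are given with these libraries and, where a call changes, without them.

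Csf1 and all 5 receptor chains were lower on average in the brains of mice with Tet2-KO marrow, and Il34 was not. By edgeR's quasi-likelihood test 5 of the 7 genes (Csf1, Csf2ra, Csf2rb, Csf2rb2 and Csf3r) had an unadjusted p under 0.05, all in the lower direction, which 12.2% of tested genes reached in that direction. The log2 fold changes ran from -1.65 for Csf2rb to 0.07 for Il34, with a median of -0.63. With Benjamini-Hochberg adjustment over all tested genes, 0 of the 7 passed 0.05 in edgeR, beside 0.0246% of all tested genes. By the DESeq2 Wald test on the same counts, the test the study used, 3 of the 7 passed it (Csf2ra, Csf2rb and Csf2rb2), where 3.38% of the genes with an adjusted p were called in the lower direction. By limma-voom the same 3 passed, against 6.38% of tested genes in the lower direction. For none of the 7 did the groups separate without overlap, a separation that 0.641% of tested genes showed in the lower direction and 0.453% in the higher. Leaving out single libraries moved the number past an unadjusted p of 0.05 between 3, without WT replicate 2, and 6. The number past the adjusted threshold was 3 without Tet2-KO replicate 5 and 0 without any other single library.

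**Figure D1:**
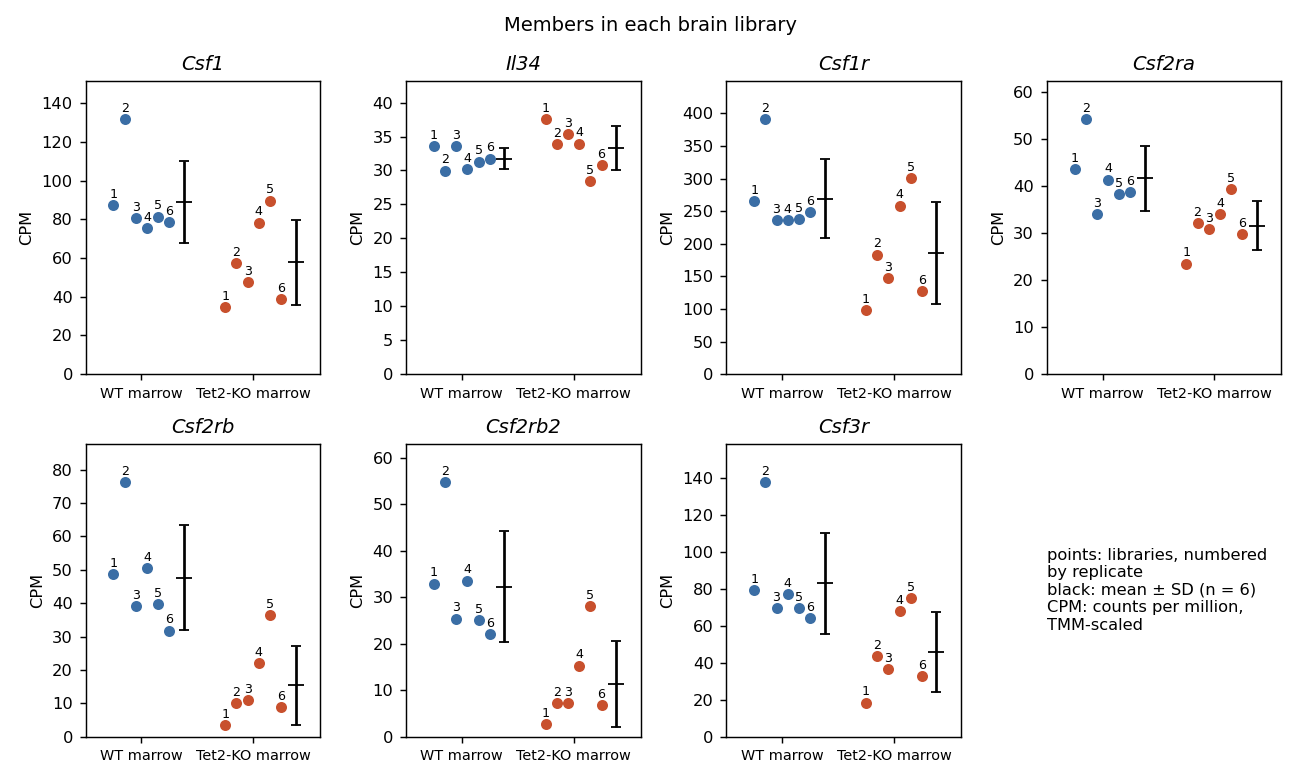
Levels of the 7 genes (CPM, y axes from 0) in each library, with WT marrow in blue and Tet2-KO marrow in red, replicate numbers beside the points and the mean ± SD of each group (n = 6) in black. Tet2-KO replicate 5 sits inside the WT range for Csf1 and the 5 receptor chains, while Tet2-KO replicate 1 is the lowest point of all for those 6 genes.

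Positions are in mouse build GRCm38 (mm10), from the GENCODE M21 annotation. Csf1 (ENSMUSG00000014599) is at chr3:107741048-107760469 on the minus strand and Il34 (ENSMUSG00000031750) at chr8:110741829-110805924 on the minus strand. Csf2ra (ENSMUSG00000059326) is at chr19:61223957-61228429 on the minus strand and Csf3r (ENSMUSG00000028859) at chr4:126024550-126044440 on the plus strand. The beta chains are neighbours that are transcribed away from each other, Csf2rb2 (ENSMUSG00000071714) at chr15:78282507-78305721 on the minus strand and Csf2rb (ENSMUSG00000071713) at chr15:78325752-78353847 on the plus strand, with 20030 bases between them. Because 6 of the genes varied together over the libraries (below), their promoters were searched for 5 short motifs of factors that act in myeloid or inflammatory gene control, on both strands, in the 250 bases before the RefSeq start site (GRCm38.p6). The table of promoters held 4 of the 7 genes (Csf1, Csf2ra, Csf2rb2 and Csf3r) among 32851 promoters. The 2 whose motif lies wholly outside annotated transcripts are printed 5′ to 3′ on the strand of the gene, with the motif in capitals.
Csf1, chr3:107760470-107760719: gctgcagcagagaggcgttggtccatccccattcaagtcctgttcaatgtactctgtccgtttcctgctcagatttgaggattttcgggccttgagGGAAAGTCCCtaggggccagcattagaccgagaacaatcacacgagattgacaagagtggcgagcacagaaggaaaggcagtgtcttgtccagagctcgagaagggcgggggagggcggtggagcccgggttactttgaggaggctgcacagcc
Csf2rb2, chr15:78305722-78305971: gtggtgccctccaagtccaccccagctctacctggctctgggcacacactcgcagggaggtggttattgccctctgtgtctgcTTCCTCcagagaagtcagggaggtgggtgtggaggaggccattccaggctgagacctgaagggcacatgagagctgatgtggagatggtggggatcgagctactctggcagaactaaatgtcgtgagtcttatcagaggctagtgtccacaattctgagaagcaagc

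The NF-kB motif searched, whose 10 letters read on the opposite strand are the capitals in the Csf1 promoter, was present there once, beginning 154 bases before the start, and 0.14% of all promoters in the table held it. The core GAGGAA of motifs bound by PU.1, the factor that sets the myeloid fate, was present in Csf2rb2, on the opposite strand and beginning 167 bases before the start. It was also found 86 bases before the RefSeq start of Csf3r and at 14 and 8 bases before that of Csf2ra. GENCODE places these matches inside the annotated genes, except the first letters of the match at 14 bases, which lie just before Csf2ra. Of all promoters 23.3% held GAGGAA. A C/EBP motif (TTGCNNAA, in 9.56% of promoters), a RUNX motif (TGTGGT, in 14%) and an AP-1 motif (TGANTCA, in 6.75%) had no match in these 4 windows. These are matches of letters only, and binding was not measured.

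Csf1 was at 75.3 CPM in the lowest, 81.0 in the median and 132 in the highest WT library, and at 34.8, 52.4 and 89.7 CPM in the Tet2-KO libraries. In 4 of 6 Tet2-KO libraries the level was below every WT library, and replicates 4 and 5 lay inside the WT range. The WT mean was 89.2 ± 21.2 CPM and the Tet2-KO mean 57.7 ± 22.1 CPM (SD, n = 6), a log2 fold change of -0.63 (SE 0.25, 95% interval -1.17 to -0.08, edgeR adjusted p = 0.173). The unadjusted p rose above 0.05 when WT replicate 2 (0.0749) or Tet2-KO replicate 1 (0.0509), 3 (0.0571) or 6 (0.0568) was left out.

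Il34 varied least of the 7 genes. It was at 29.98 CPM in the lowest, 31.5 in the median and 33.6 in the highest WT library, and at 28.4, 33.9 and 37.5 CPM in the Tet2-KO libraries. Of the Tet2-KO libraries 4 were above every WT library and 1, replicate 5, was below every one. The means of 31.7 ± 1.59 CPM (SD, n = 6) and 33.3 ± 3.27 CPM differed by 0.07 on the log2 scale (SE 0.07, 95% interval -0.07 to 0.21, edgeR adjusted p = 0.556), within the spread between mice. Exons of Il34 overlap those of the antisense genes Gm15894 by 22 bases and Gm15895 by 75 bases. The strand setting of the counting is not given in the sources used here, so reads from those bases cannot be assigned with certainty.

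Set against each other within a library, Il34 counts per Csf1 count were 0.228, 0.393 and 0.417 (lowest, median, highest) in WT libraries and 0.317, 0.668 and 1.08 in Tet2-KO libraries. In 5 of 6 Tet2-KO libraries the ratio was above every WT library, and replicate 5 lay inside the WT range. In the Tet2-KO library with the highest ratio the counts of the 2 ligands were nearly equal.

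The other ligands of these receptors were at the limit of detection at this depth. Csf2, which encodes GM-CSF, had 1 count in the 6 WT libraries together and 3 counts in the 6 Tet2-KO libraries (exact two-sided permutation test on log2 of CPM + 0.1, p = 0.545). Csf3, which encodes G-CSF, had 9 and 13 counts, between 0 and 4 per library (p = 0.775, same exact test). Il3 had 2 and 1 counts (p = 0.455, exact test) and Il5 had 39 and 36 (p = 0.481, exact test), and the smallest p this design allows is 0.00216. None of these 4 genes passed the filter on low counts, and at these counts a difference between the groups was not detectable.

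Csf1r (ENSMUSG00000024621, chr18:61100598-61132149, plus strand), the shared receptor of Csf1 and Il34, was at 236 CPM in the lowest, 243 in the median and 391 in the highest WT library, and at 98.5, 165 and 301 CPM in the Tet2-KO libraries. In the WT group 5 libraries lay close together below 266 CPM, while the Tet2-KO libraries spread over a 3.05-fold range. The means were 269 ± 60.7 CPM (SD, n = 6) and 186 ± 78.8 CPM, a log2 fold change of -0.53 (SE 0.27, 95% interval -1.13 to 0.06, edgeR adjusted p = 0.259), which did not exceed the spread between mice. The unadjusted p was under 0.05 without Tet2-KO replicate 4 (0.0411) and without replicate 5 (0.0143). Exons of Csf1r overlap those of Hmgxb3 on the opposite strand by 873 bases, with the same uncertainty about strand as for Il34.

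Csf2ra, the chain that binds GM-CSF, was at 34.1, 40.1 and 54.3 CPM (lowest, median, highest) in WT libraries and at 23.5, 31.5 and 39.5 CPM in Tet2-KO libraries. In 5 of 6 Tet2-KO libraries it was below every WT library. The means of 41.8 ± 6.93 CPM (SD, n = 6) and 31.7 ± 5.22 CPM gave a log2 fold change of -0.40 (SE 0.12, 95% interval -0.66 to -0.14, edgeR adjusted p = 0.123). The difference was small and even: the Tet2-KO libraries of Csf2ra spanned a 1.68-fold range, the narrowest of the 5 receptor chains. The DESeq2 adjusted p was 0.0428, and the edgeR adjusted p was 0.0242 without Tet2-KO replicate 5.

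Csf2rb, the common beta chain, differed most of the 7 genes. It was at 31.8, 44.2 and 76.3 CPM (lowest, median, highest) in WT libraries and at 3.53, 10.7 and 36.4 CPM in Tet2-KO libraries. Tet2-KO replicate 5, at 36.4 CPM, was above the lowest WT library, and the other 5 Tet2-KO libraries were below every WT library. The WT mean was 47.7 ± 15.6 CPM and the Tet2-KO mean 15.4 ± 11.9 CPM (SD, n = 6), a level 3.13-fold higher with WT marrow. The log2 fold change was -1.65 (SE 0.46, 95% interval -2.67 to -0.62, edgeR adjusted p = 0.123), and 0.419% of tested genes had a lower one. Without Tet2-KO replicate 5 it was -2.08 with an edgeR adjusted p of 0.0166, and by DESeq2 with all libraries the adjusted p was 0.0268.

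Csf2rb2, the beta chain of the interleukin-3 receptor, followed Csf2rb. It was at 22.1, 29.2 and 54.8 CPM (lowest, median, highest) in WT libraries and at 2.66, 7.31 and 28.2 CPM in Tet2-KO libraries, again with only replicate 5 inside the WT range. The means were 32.3 ± 11.9 CPM (SD, n = 6) and 11.3 ± 9.24 CPM, a log2 fold change of -1.54 (SE 0.48, 95% interval -2.59 to -0.48, edgeR adjusted p = 0.128). Without Tet2-KO replicate 5 it was -2.02 with an edgeR adjusted p of 0.0172, and by DESeq2 with all libraries the adjusted p was 0.0476. The beta chains are similar in sequence, so reads from shared stretches cannot be assigned with certainty. Of 150-base stretches (the read length) in annotated transcripts, 2.302% in Csf2rb and 3.335% in Csf2rb2 are identical in the other gene. At 25 bases the shares were 22.0% and 33.7%. With the counts of both summed into 1 gene the log2 fold change was -1.60 (SE 0.48, edgeR adjusted p = 0.125).

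Csf3r, the G-CSF receptor, was at 64.4, 73.5 and 138 CPM (lowest, median, highest) in WT libraries and at 18.5, 40.1 and 74.8 CPM in Tet2-KO libraries. In 4 of 6 Tet2-KO libraries it was below every WT library, with replicates 4 and 5 inside the WT range. The means of 83.1 ± 27.4 CPM (SD, n = 6) and 45.7 ± 21.7 CPM gave a log2 fold change of -0.86 (SE 0.33, 95% interval -1.59 to -0.14, edgeR adjusted p = 0.165). Without WT replicate 2 the log2 fold change was -0.66 and the unadjusted p 0.0659.

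Per kilobase of exon, Csf1r was the most abundant of the 7 transcripts in both groups and the beta chains the least. With WT marrow the order of mean levels was Csf1r at 46.6, Csf3r at 23.0, Csf1 at 16.9, Il34 at 16.2, Csf2ra at 14.6, Csf2rb2 at 6.82 and Csf2rb at 6.55 CPM per kb. The ranges of Csf3r and Csf1, of Csf1, Il34 and Csf2ra, and of the 2 beta chains overlapped across WT libraries. Within each WT library Csf3r was above Csf1. The order among Csf1, Il34 and Csf2ra, and that of the 2 beta chains, changed from library to library. With Tet2-KO marrow the means were 32.2 CPM per kb for Csf1r, 17.0 for Il34, 12.7 for Csf3r, 11.03 for Csf2ra and 10.9 for Csf1. Across Tet2-KO libraries the range of Il34 (14.5 to 19.2) overlapped those of Csf1r (17.1 to 52.1), Csf3r (5.12 to 20.7) and Csf1 (6.58 to 17.0), so its place among them did not hold beyond the spread. Csf2rb2 and Csf2rb were at 2.38 and 2.11 CPM per kb. With the length of the longest transcript in place of all exons, 3 of the 7 genes kept their place in the WT order.

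**Figure D2:**
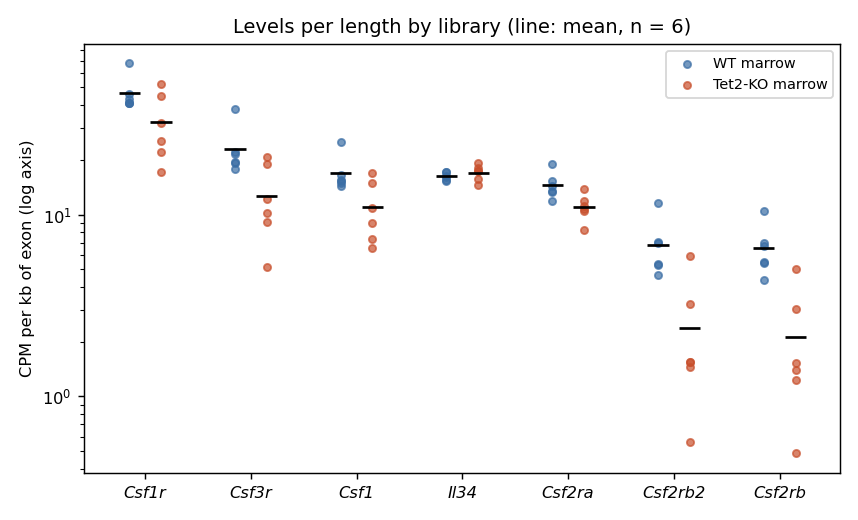
Levels of the 7 genes in CPM per kb of exon on a log axis, with 1 point per library (WT marrow in blue, Tet2-KO marrow in red) and a line at each mean (n = 6). Csf1r has the highest mean in both groups, at 46.6 and 32.2 CPM per kb, and Il34 has the narrowest spread.

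The receptor chains did not differ by the same proportion, which the ratio of counts within a library shows without any scaling between libraries. Csf2rb counts per Csf1r count were 0.128, 0.175 and 0.214 (lowest, median, highest) in WT libraries and 0.0359, 0.0728 and 0.121 in Tet2-KO libraries, so that all 6 Tet2-KO libraries, replicate 5 included, lay below all 6 WT libraries. Of the other tested genes 0.675% had a ratio to Csf1r that separated the groups in this direction. Csf2rb per Csf3r separated the groups as well, at 0.494 to 0.652 with WT and 0.191 to 0.486 with Tet2-KO marrow, where 0.133% of the other tested genes did so in this direction. Csf2rb2 per Csf1r was 0.0886 to 0.142 with WT and 0.0271 to 0.0937 with Tet2-KO marrow, with 5 of 6 Tet2-KO libraries below every WT library. These ratios were chosen after the values had been seen and were not tested.

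Other ratios moved less. Csf3r per Csf1r had a median of 0.297 with WT and 0.249 with Tet2-KO marrow, and 5 of 6 Tet2-KO libraries were below every WT library. Csf2ra per Csf1r had medians of 0.159 and 0.193, with 3 Tet2-KO libraries above and 2 below every WT library. Csf1 per Csf1r was nearly constant, between 0.316 and 0.343 in WT libraries and between 0.298 and 0.353 in Tet2-KO libraries. Within that narrow span, 4 Tet2-KO libraries were below and 1 above every WT library. Csf2rb2 per Csf2rb was likewise narrow, between 0.632 and 0.718 and between 0.661 and 0.774, with 3 Tet2-KO libraries above every WT library.

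**Figure D3:**
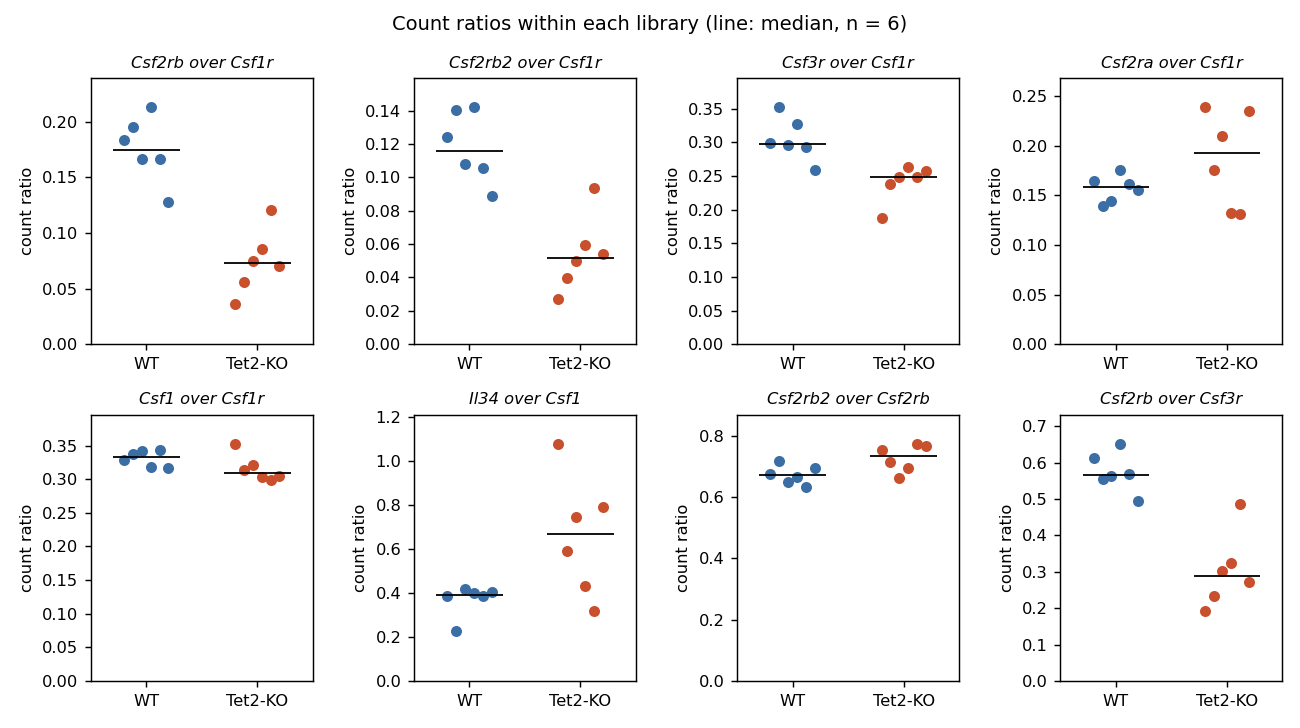
Ratios of counts within each library, with WT marrow in blue and Tet2-KO marrow in red and a line at the median of each group (n = 6); y axes start at 0. The ratios of Csf2rb to Csf1r and to Csf3r separate the groups, while Csf1 to Csf1r stays between 0.298 and 0.353 in all libraries.

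Csf1 and the receptor chains varied together from mouse to mouse within the groups. After subtracting the group means from log2 CPM, Pearson's r over the 12 libraries was 0.991 for Csf1 with Csf1r (Spearman's rho 0.944), 0.996 for the 2 beta chains (rho 0.965) and 0.9755 for Csf1r with Csf3r (rho 0.888). The lowest r among those 6 genes was 0.863, between Csf1 and Csf2ra. Il34 varied against them, with r between -0.73 and -0.53 and rho between -0.43 and -0.34. These correlations describe libraries that share tissue composition and carry no test, and WT replicate 2 and Tet2-KO replicates 1 and 5 lie at their ends.

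**Figure D4:**
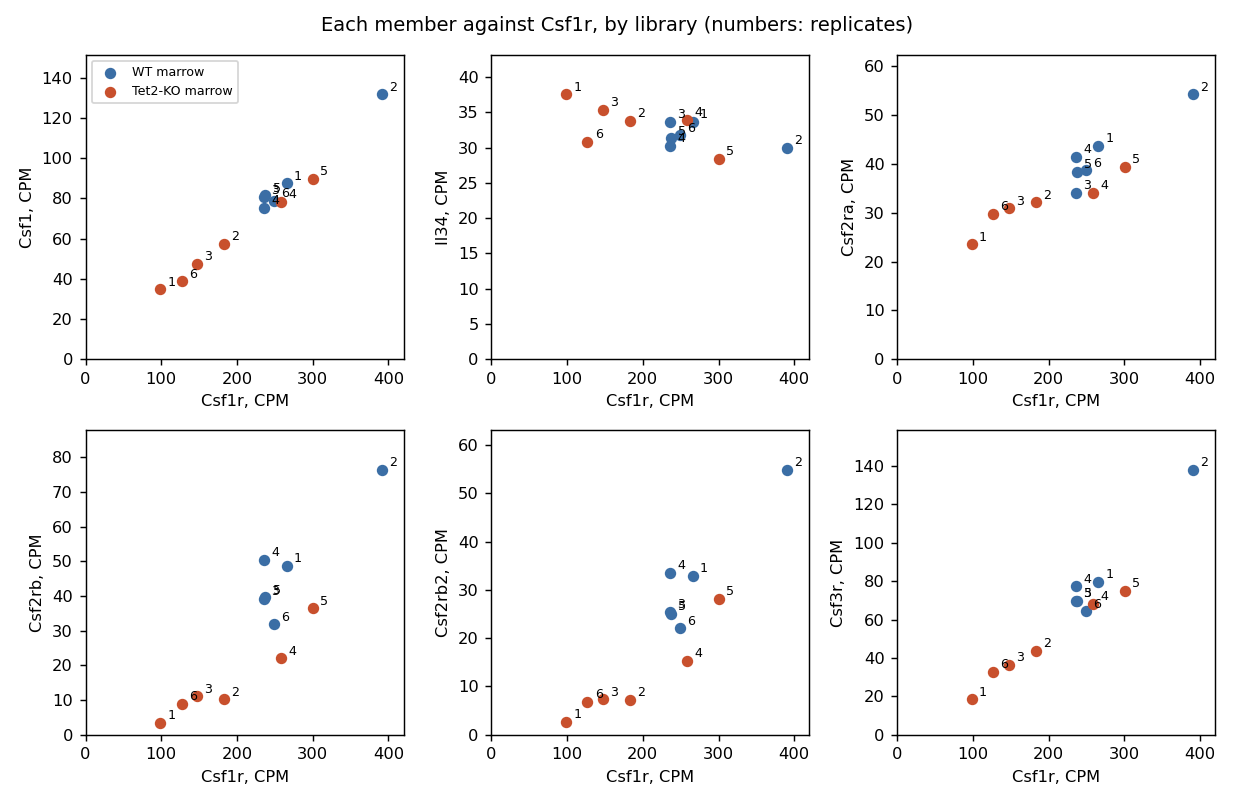
Level of each other member (y axes, CPM) against Csf1r (x axes, CPM) in the 12 libraries, WT marrow in blue and Tet2-KO marrow in red, numbered by replicate. Csf1 lies on 1 line with Csf1r in both groups, and Il34 is nearly level. Only Tet2-KO replicates 4 and 5 reach the WT range of Csf1r. For both beta chains, replicate 4 lies below every WT library and replicate 5 lies inside the WT range.

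The genes whose variation was most like each member's were sought among 19101 genes with a mean of at least 1 CPM, on the same group-centred scale over 12 libraries. For Csf1 they were Csf1r, Rgs10 (r = 0.988) and Pros1 (0.988), and for Csf1r they were AU020206 (0.995), Col4a5 (0.992) and Csf1. For Csf2ra they were Actb (0.977), Bach1 (0.977) and Maf (0.973), and for Csf3r Wipf1 (0.994), C1qb (0.993) and Ctss (0.992). For Csf2rb they were Col3a1 (0.996), Csf2rb2 and Fcgr2b (0.996), and for Csf2rb2 they were Csf2rb, Ltbp2 (0.994) and Fcgr2b (0.993). For Il34 they were Plekhh2 (-0.944), Clip4 (0.942) and Gm6863 (-0.935). Among them C1qb encodes a chain of complement C1q, Ctss a lysosomal protease, Fcgr2b the inhibitory Fc receptor and Col3a1 a fibrillar collagen.

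Genes that carry the signal of these receptors inside the cell were mostly lower too. Of 25 signal relays tested, 16 had an unadjusted p under 0.05 in the lower direction and 0 in the higher, against 12.2% and 10.8% of tested genes, and 0 passed the adjusted threshold in edgeR. Their median log2 fold change was -0.50. Among the 8 with the smallest p were Pik3cd, the leukocyte catalytic subunit of PI3-kinase, with a log2 fold change of -0.58 (SE 0.12, edgeR adjusted p = 0.11), Socs3 (-1.38), Socs1 (-0.69), Stat5a (-0.64), Stat3 (-0.41), Pik3r5 (-0.87) and Ptpn6 (-0.88). Socs3 and Socs1 are feedback inhibitors of cytokine receptors, Stat5a and Stat3 are transcription factors that these receptors activate, Pik3r5 a regulatory subunit of the leukocyte PI3-kinase gamma and Ptpn6 the phosphatase SHP-1.

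Pik3cd was the relay in which the groups did not overlap: the WT mean was 56.7 ± 9.04 CPM and the Tet2-KO mean 37.97 ± 6.55 CPM (SD, n = 6), and all 6 Tet2-KO libraries were below every WT library. Of all tested genes 0.641% separated in this way in the lower direction, and Pik3cd also had the smallest p of the relays. Socs3 was at 14.02 ± 6.69 and 5.37 ± 2.48 CPM, with 5 of 6 Tet2-KO libraries below every WT library. Jak2, the kinase bound to the beta chains, had a log2 fold change of -0.11 (SE 0.05) and was also among the 16 called lower. It was singled out after its values had been seen.

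**Figure D5:**
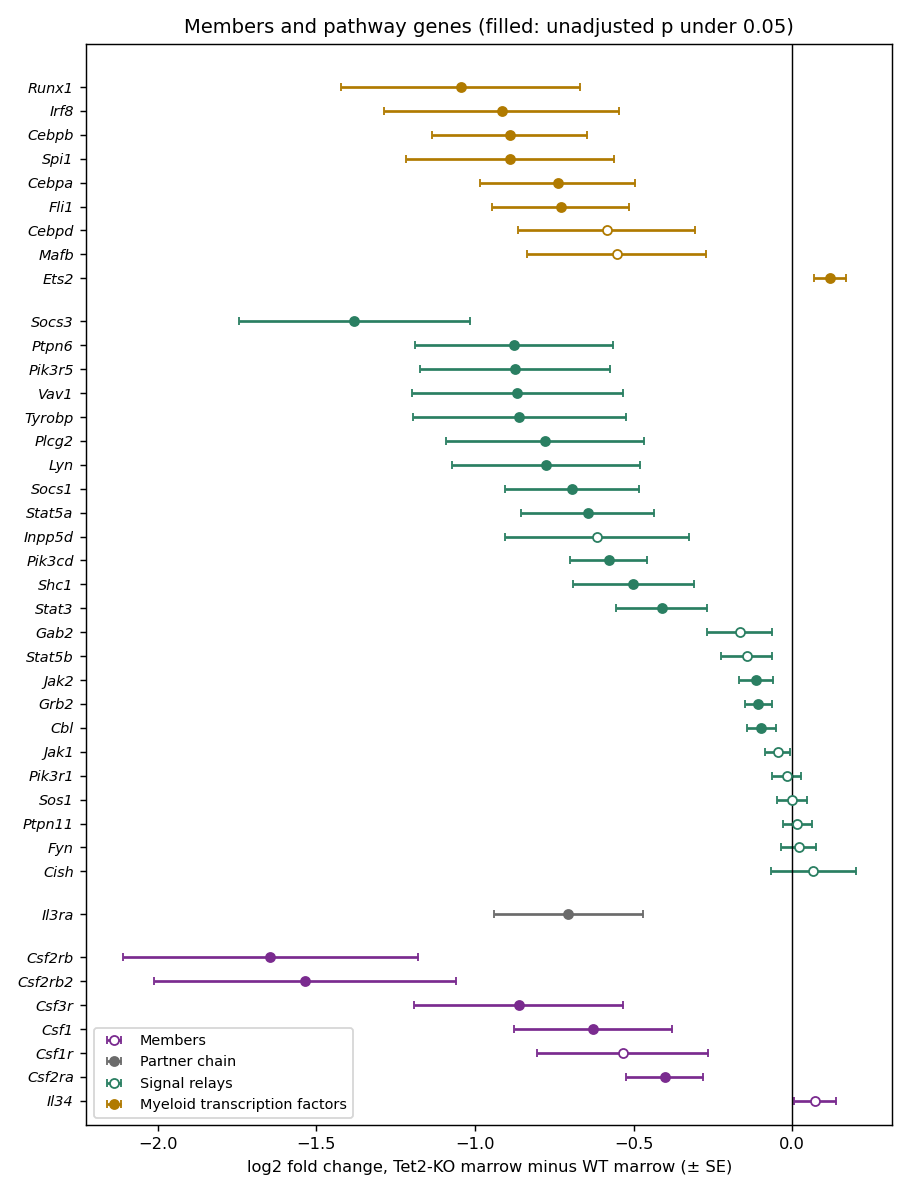
Log2 fold change (± SE) of Tet2-KO over WT marrow for the 7 genes, the interleukin-3 receptor chain Il3ra, 24 of the 25 signal relays and 9 myeloid transcription factors, with filled points for an unadjusted p under 0.05. The beta chains lie farthest left among the 7 genes at -1.65 and -1.54, and Il34 and the relays Ptpn11, Fyn and Cish lie just right of 0.

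Of 11 transcription factors of the myeloid lineage, 9 were tested, and 6 had an unadjusted p under 0.05 in the lower direction and 1 in the higher, against 12.2% and 10.8% of tested genes, so that the 1 higher call of 9 is near the background. Their median log2 fold change was -0.74, and 0 passed the adjusted threshold in edgeR. The 6 were Cebpb (-0.89, SE 0.24), Fli1 (-0.73, SE 0.22), Cebpa (-0.74, SE 0.25), Runx1 (-1.04, SE 0.38), Spi1 (-0.89, SE 0.33) and Irf8 (-0.92, SE 0.37). Spi1 encodes PU.1, which together with Runx1 and the C/EBP factors Cebpa and Cebpb is known to drive Csf1r and Csf3r in myeloid cells. Ets2, which is made by many cell types, was the higher one, at 0.12 (SE 0.05, edgeR adjusted p = 0.172). Of the remaining ligands and partner chains, Il3ra, the chain that joins the beta chains to bind interleukin-3, had a log2 fold change of -0.71 (SE 0.23, edgeR adjusted p = 0.131), while Il5ra, with 55 and 97 counts in the groups, did not pass the filter.

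In bulk tissue fewer cells of a type and less RNA per cell cannot be told apart, so the levels of marker lists of the cells that use these receptors are given here. The summed level of 10 markers of homeostatic microglia ranged from 824 to 1483 CPM in WT and from 389 to 1032 CPM in Tet2-KO libraries. Of these markers, 2 had an unadjusted p under 0.05, both lower, a share near the 12.2% of all tested genes (Fcrls at -0.75, SE 0.32, and Olfml3 at -0.65, SE 0.28), and their median log2 fold change was -0.29. P2ry12, the purinergic receptor that marks resting microglia, was at 39.9 ± 4.53 CPM (SD, n = 6) and 41.2 ± 7.92 CPM, a log2 fold change of 0.05 (SE 0.12), and was singled out after its values had been seen. Over the libraries the summed level had a group-centred r of 0.971 with Csf1r and 0.982 with Csf3r (rho 0.916 and 0.804).

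In the main fit, lists for monocytes, border macrophages, activated phagocytes, dendritic cells and fibroblasts had larger median differences than that for homeostatic microglia. The activated phagocyte list does not separate resident from blood-derived cells. All 8 monocyte markers had an unadjusted p under 0.05 in the lower direction (median log2 fold change -1.77, smallest p F13a1 at -1.0001 and Plac8 at -1.91), and their summed level was 700 to 1690 CPM in WT and 143 to 901 CPM in Tet2-KO libraries. Most of that sum came from Lyz2 (WT mean 496 CPM) and Fn1 (474 CPM), with Ccr2 next at 15.1 CPM, so it mainly follows Lyz2 and Fn1. The group-centred r of this sum with Csf2rb and Csf2rb2 was 0.977 and 0.983, and that of the border macrophage sum 0.984 and 0.988. Such values were not particular to these lists. They were 0.969 and 0.979 for activated phagocytes, 0.970 and 0.973 for fibroblasts, and 0.927 and 0.928 for eosinophils and mast cells. Of 7 markers of border macrophages 4 were lower at that threshold (median -0.81, led by F13a1, also on the monocyte list, and Mrc1 at -0.95). The border macrophage markers Cd163 (0.04, SE 0.14) and Lyve1 (0.22, SE 0.28) were not lower. Of 10 markers of activated phagocytes 7 were lower at that threshold (median -1.23, led by Lgals3 at -1.95 and Clec7a at -1.22). Of 7 dendritic cell markers 5 were (median -0.79, led by Xcr1 at -1.56 and Cd209a at -1.54). Xcr1 and Cd209a had few counts in Tet2-KO libraries, 1 to 13 and 2 to 18 per library. Flt3 (-0.12) and Zbtb46 (-0.04) were not lower at that threshold. With at least 10 counts required in every library the median of the dendritic cell list was -0.08. All 6 fibroblast markers were lower at that threshold (median -1.33, led by Dcn at -1.30 and Col1a1 at -1.36), with a summed level of 581 to 1313 CPM in WT and 147 to 735 CPM in Tet2-KO libraries. The part of these cells in the levels of the receptors was not tested.

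Neutrophils, the textbook home of Csf3r, left few counts. Of 11 neutrophil markers 4 passed the filter, and S100a8 (-2.16, SE 0.31, edgeR adjusted p = 0.0364) and S100a9 (-2.84, SE 0.41, edgeR adjusted p = 0.0364) are among the 5 genes past the adjusted threshold. S100a8 had 28 to 109 counts per WT and 5 to 26 per Tet2-KO library, and S100a9 had 13 to 52 and 1 to 10. Cxcr2 and Mmp8, which also passed the filter, had 1 to 18 and 1 to 25 counts per Tet2-KO library. With at least 10 counts required in every library, none of these 4 is tested and 0 genes pass the adjusted threshold in edgeR. The defining marker Ly6g had 2 counts in the WT libraries together and 0 in the Tet2-KO libraries. The summed level of the list was 7.62 to 21.2 CPM in WT and 2.08 to 6.59 CPM in Tet2-KO libraries, without overlap. Among the 6 others besides Ly6g, Mpo had 25 and 29 counts in the WT and Tet2-KO libraries together, Retnlg 46 and 47, Ngp 61 and 58, Camp 17 and 15, Elane 2 and 2, and Ltf 33 and 18. The median log2 fold change of the list was -2.36 over the 4 that passed and -1.09 with no filter. The group-centred r of the sum with Csf3r was 0.455. Sums of homeostatic microglia, fibroblast, activated phagocyte, border macrophage and monocyte markers had r between 0.942 and 0.982 with it. Of other sums, r was 0.940 for eosinophils and mast cells, 0.927 for B cells, 0.747 for oligodendrocytes and 0.471 for dendritic cells. The part of neutrophils in the level of Csf3r was not tested.

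Other lists are given as values. Of 7 T cell markers 4 passed the filter, and all 4 had an unadjusted p under 0.05 in the lower direction, against 12.2% of tested genes. Trac at -0.84 and Cd3e at -1.32 led them, and Cd3e had 14 to 27 counts per WT and 1 to 20 per Tet2-KO library. Of 6 B cell markers 3 passed the filter, and all 3 were lower at that threshold (led by Pax5 at -0.70 and Ighm at -0.20). Of 8 eosinophil and mast cell markers Siglecf (-0.95) passed the filter and was lower at that threshold, while Epx did not pass it. Of 6 endothelial markers 3 were lower (led by Cldn5 at -0.45 and Kdr at -0.39) and of 5 choroid plexus markers 2 were (Aqp1 at -0.53 and Kl at -0.28). Neuronal markers were higher, 9 of 10 at that threshold (median 0.23, led by Rbfox3 at 0.31 and Stmn2 at 0.24), as were 3 of 7 cortical markers (led by Tbr1 at 0.38) and 3 of 5 red blood cell markers (led by Hbb-bs at 0.54 and Hba-a2 at 0.56, near copies of other globin genes). Of 8 striatal markers 1 was higher (Drd1 at 0.24, next Gpr6 at 0.36) and of 6 astrocyte markers 1 was (Slc1a2 at 0.13, next Gja1 at -0.20), shares near the 10.8% of all tested genes, and the median of the astrocyte list was -0.12. Of 6 oligodendrocyte markers 0 passed in edgeR (median 0.01, Mobp at 0.09 and Mog at 0.07). The neuronal sum was 4130 to 5781 CPM in WT and 5359 to 6982 CPM in Tet2-KO libraries, and its group-centred r was 0.45 with Il34 and -0.89 with Csf1r. No marker on any list was at 0 in every library.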

How the data were processed

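The authors depleted ribosomal RNA, sequenced 150-base read pairs, used Trimmomatic 0.36 for trimming and STAR 2.5.2b for alignment to mm10 (per the submitters' processing notes) and counted unique reads in exons with featureCounts of Subread 1.5.2. The deposited values are raw counts per gene, and 0 columns belonged to other samples. Groups came from titles and genotype labels. Separate mice stand behind the libraries, but p-values measure only the spread between these libraries.

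Symbols and exon lengths came from GENCODE M21. In R 4.3.3, genes were filtered with filterByExpr, scaled by TMM and tested with edgeR 4.0.16 (quasi-likelihood, robust, no covariate), with Benjamini-Hochberg adjustment. Standard errors are the log2 fold change over the square root of F. Alternatives were DESeq2 1.42.0, limma 3.58.1 (voom with quality weights), 1 surrogate variable from sva 3.50.0, other scalings and filters, a replicate block and each library left out. Scripts were tested on simulated data. All members are described. From each gene list the 2 genes with the smallest p are named, from relays, partner chains and transcription factors up to 8 per direction with an unadjusted p under 0.05, and for each member the 3 most similar genes. Values of 2 list genes that this rule picks are left out of the text. The members and lists were chosen with earlier results of these data known. Counting error is wide below about 10 counts.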

Additional observations from a re-analysis of the deposited data

Results flagged for a closer look

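Each group's libraries were checked for a highest or lowest library far from the others, in 14 sets of 6 (7 genes, both groups). In 4 of them WT replicate 2 stood above the rest of its group, where chance flags about 1 set in 20, and the 4 share that library. It was at 131.8 CPM for Csf1 (next highest 87.4, a gap of 0.786 of the range), at 390.9 CPM for Csf1r (next 265.7, gap 0.806), at 54.8 CPM for Csf2rb2 (next 33.6, gap 0.648) and at 137.9 CPM for Csf3r (next 79.5, gap 0.794). The same library had the highest sums of homeostatic microglia (1483 CPM), monocyte (1690 CPM) and neutrophil (21.2 CPM) markers and the lowest neuronal sum of its group (4130 CPM); the cause was not tested. No Tet2-KO library was set apart by this check for any of the 7 genes.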

How the results depend on the processing

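The log2 fold change of each of the 7 genes kept its sign in all 22 alternatives, between -2.08 and -1.44 for Csf2rb, -2.02 and -1.32 for Csf2rb2, -1.05 and -0.66 for Csf3r, -0.79 and -0.48 for Csf1, -0.72 and -0.40 for Csf1r, -0.47 and -0.31 for Csf2ra, and 0.04 and 0.11 for Il34. Counts of calls did change. The 5 genes past the adjusted threshold became 902 with DESeq2, 1863 with limma-voom, 44 with no filter, 3 with 1 surrogate variable, 0 with at least 10 counts in every library (4241 at an unadjusted p under 0.05 in edgeR) and 1554 with WT replicate 2 and Tet2-KO replicate 5 both left out, and ranged from 0 to 2257 with single libraries left out, highest without Tet2-KO replicate 5. It was 13 without WT replicate 6, 4 without WT replicate 2 and 2 without WT replicate 5. Where it was 0, between 3629 and 5386 genes had an unadjusted p under 0.05. Of the members 3 (Csf2ra, Csf2rb and Csf2rb2) passed the adjusted threshold with DESeq2, with limma-voom, without both libraries and without Tet2-KO replicate 5, with a range of 0 to 3 over single libraries left out, while 3 to 6 passed unadjusted, 3 without WT replicate 2. With the longest transcript 3 of 7 places in the order per length held, and 13 of 21 most similar genes were the same without subtracting group means. Upper quartile scaling moved the unadjusted calls to 2129 lower and 3009 higher, and total counts alone to 3038 lower and 1370 higher, from 2477 and 2201.

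Same-numbered libraries of the 2 groups deviated together in 1 of 6 cases (r over 0.1; range -0.17 to 0.23), and 1 WT library correlated best with its own number, so the numbers were not taken to pair the mice. With a replicate block 0 genes passed the adjusted threshold in edgeR (4329 at an unadjusted p under 0.05), and the same 5 members passed unadjusted.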
